A study of Mus musculus with 14 samples.

Results

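Mid1, G530011O06Rik, Entpd4, Alg6, Phyhipl and Mns1 are 6 genes whose array signal in mouse microglia was compared between TLR4-/- and wild type, array by array, within each surgery. They were chosen from the measured values of these arrays, and they are 6 of the 19938 genes measured. Each had 1 array row that names it alone, so no choice among rows was needed. The genotype differences of these genes are therefore a description, given without a p-value. Genotype calls from the fit over all genes are given as counts, which support nothing about the 6 genes, and their tests are those of the response to surgery. Their working description as genes that separate the genotypes held in both surgeries for 4 of them (Mid1, G530011O06Rik, Entpd4 and Alg6). For Phyhipl and Mns1 it held after ischaemia and reperfusion but not after sham surgery.

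The microglia, the resident macrophages of the brain, were sorted from the operated side's cortex, and the mice were male, labelled C57BL/6J and 12 to 14 weeks old. Ischaemia and reperfusion (I/R) meant occluding the middle cerebral artery for 15 min and then allowing 72 h of reperfusion, and the control operation was sham surgery. There were 4 wild-type I/R arrays (A to D), 4 wild-type sham arrays (A to D), 3 TLR4-/- I/R arrays (B, C and D) and 3 TLR4-/- sham arrays (A, B and D). Both genotypes carried the same strain label, and the labels do not describe the TLR4-/- allele, its breeding or the sort markers. The titles of the I/R samples carry the unexplained abbreviation IPC, and the treatment label was followed. The labels do not say that each array is a separate animal, so a p-value measures only how far these samples spread, and that spread may be technical. In bulk RNA of this kind, fewer cells of a type and less RNA per cell cannot be told apart.

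Mid1 encodes midline 1, a ubiquitin ligase of the TRIM family that sits on microtubules and, through the alpha4 protein (Igbp1), directs the turnover of protein phosphatase 2A. In laboratory mice the gene lies across the boundary of the pseudoautosomal region, the stretch of sequence that the X and Y chromosomes share. G530011O06Rik is a noncoding RNA gene, Alg6 encodes the glucosyltransferase that adds the first glucose to the lipid-linked precursor of N-glycans, and Entpd4 encodes a nucleoside diphosphatase of the Golgi and lysosomal membranes. Mns1 encodes a structural protein of the axoneme of motile cilia and sperm tails, and was named for its expression in meiotic germ cells. Phyhipl is a relative of the phytanoyl-CoA hydroxylase-interacting protein gene Phyhip, and its function is little known.

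The start sequences are shown first for the gene pair at the end of the X chromosome, because one of the genes is listed on both sex chromosomes. In the RefSeq gene order of assembly GRCm38.p6, G530011O06Rik lies inside the span of Mid1 on the opposite strand, and its start is listed on X and again on Y. The 250 bases upstream of each start follow, at chrX:169978918-169979167 and chrY:90755051-90755300, both on the minus strand, from RefSeq with build GRCm38.p6, written 5′ to 3′ in the direction of transcription, and capitals mark the bases at which X and Y differ in their alignment.
G530011O06Rik on X: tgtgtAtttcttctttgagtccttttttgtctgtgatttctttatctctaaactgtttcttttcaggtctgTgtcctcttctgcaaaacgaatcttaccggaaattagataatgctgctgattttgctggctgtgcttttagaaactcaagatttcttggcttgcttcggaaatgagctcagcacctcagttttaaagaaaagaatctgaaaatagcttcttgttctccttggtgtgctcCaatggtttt
G530011O06Rik on Y: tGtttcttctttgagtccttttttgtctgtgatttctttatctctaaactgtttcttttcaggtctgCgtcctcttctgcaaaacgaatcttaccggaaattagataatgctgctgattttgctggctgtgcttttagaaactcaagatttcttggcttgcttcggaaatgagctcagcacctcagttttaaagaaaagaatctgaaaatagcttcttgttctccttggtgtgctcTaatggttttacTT
Over the windows from these bases to just past both starts, 296 bases were aligned and 292 were identical (98.6%), with 4 mismatches and 2 bases present on Y alone. Of these, 3 mismatches and both bases found on Y alone lie in the printed stretches. The labels and files used here do not place the array's probes, so signal from the X and Y copies of G530011O06Rik cannot be told apart. The same holds for signal from Mid1 and G530011O06Rik where the genes overlap.

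RefSeq lists 3 starts for Mid1 and 1 each for Alg6 and Mns1, and 5 of the 6 genes matched an entry. One upstream stretch of each of these 3 genes is printed, to show the sequence ahead of genes with a wide genotype or surgery difference. They lie at chrX:169879369-169879618 (Mid1), chr4:99715380-99715629 (Alg6) and chr9:72438279-72438528 (Mns1), all on the plus strand of GRCm38.p6. Capitals mark matches on either strand to the CCAAT box, to the TATAAA form of the TATA box and to the GC box GGGCGG, motifs picked with the results in view. On the other strand the CCAAT box reads ATTGG and the GC box reads CCGCCC.
Mid1: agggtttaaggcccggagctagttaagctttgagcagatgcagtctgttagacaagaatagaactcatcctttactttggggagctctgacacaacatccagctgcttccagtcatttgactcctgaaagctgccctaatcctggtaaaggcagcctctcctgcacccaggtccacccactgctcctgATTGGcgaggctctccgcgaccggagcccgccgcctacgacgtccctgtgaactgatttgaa
Alg6: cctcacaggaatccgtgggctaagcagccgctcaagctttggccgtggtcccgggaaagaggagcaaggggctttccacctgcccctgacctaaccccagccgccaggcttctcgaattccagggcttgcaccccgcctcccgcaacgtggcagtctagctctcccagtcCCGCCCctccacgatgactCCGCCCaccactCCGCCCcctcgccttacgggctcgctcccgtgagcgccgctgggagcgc
Mns1: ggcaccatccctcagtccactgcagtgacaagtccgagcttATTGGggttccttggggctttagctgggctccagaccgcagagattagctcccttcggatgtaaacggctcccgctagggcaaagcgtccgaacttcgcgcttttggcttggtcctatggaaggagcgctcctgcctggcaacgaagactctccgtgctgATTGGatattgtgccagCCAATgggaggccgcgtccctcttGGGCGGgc
The Mns1 stretch held 3 matches to the CCAAT box and 1 to the GC box, and the Alg6 stretch held 3 to the GC box and none to the CCAAT box. The printed Mid1 stretch held 1 match to the CCAAT box, and those of the other Mid1 starts held none to any of these motifs. Among all 32851 upstream windows of the same length, 33.8% held the CCAAT box, 32.7% held the GC box and 12.4% held the TATAAA form. Matches of this kind are common in promoters and mark no bound site.

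The deposited values are RMA values on the log2 scale, so a difference of 1.00 is a 2-fold difference in signal. Array medians lay between 4.93 and 5.12. Signal up to 4.67, the 95th percentile of the means of 1027 olfactory receptor genes, was taken as the background range, and 62.9% of all genes had a mean above it. Across genes, wild-type sham array C had r from 0.987 to 0.992 with the sham arrays of TLR4-/-, above those with its own group (0.981 to 0.986). For TLR4-/- I/R array D the values were 0.990 to 0.992 with the wild-type I/R arrays and 0.985 to 0.990 with its own group. Other arrays leaned the same way, but with overlapping ranges. TLR4-/- I/R array B had 0.986 to 0.988 with wild-type I/R and 0.985 to 0.986 with its own group. For TLR4-/- I/R array C these were 0.987 to 0.990 and 0.986 to 0.990. Wild-type sham array D had 0.988 to 0.991 with TLR4-/- sham and 0.986 to 0.989 with its own group. The genotype differences of the 6 genes, of Pgm1 and of Tlr4 are given with and without wild-type sham array C and TLR4-/- I/R array D. Microglial markers were high on every array (11 markers measured, list mean from 10.9 to 11.4).

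Mid1 was lower on every TLR4-/- array than on every wild-type array, in both surgeries. After sham surgery the log2 values were 7.01, 7.17, 7.01 and 7.13 on wild-type arrays A to D, and 5.98, 6.42 and 5.87 on TLR4-/- arrays A, B and D. After I/R they were 7.13, 7.17, 7.32 and 7.08 in wild type (A to D) and 6.30, 6.27 and 6.25 in TLR4-/- (B, C and D). The wild-type arrays of both surgeries lay together within a narrow band, and the TLR4-/- arrays lay in a band below it, with sham array B the nearest. The difference of means (TLR4-/- minus wild type) was -0.99 after sham and -0.91 after I/R, or 1.99-fold and 1.87-fold lower. The nearest arrays of the genotypes were 0.59 apart after sham and 0.78 apart after I/R. Without wild-type sham array C the sham difference was -1.01, and without TLR4-/- I/R array D the I/R difference was -0.89. Mid1 was chosen on these values, so its levels are no check of the labels of these arrays.

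G530011O06Rik, the noncoding gene inside Mid1, was likewise lower on every TLR4-/- array in both surgeries. After sham surgery its values were 9.72, 10.21, 9.18 and 9.67 on wild-type arrays A to D, and 8.57, 8.63 and 8.40 on TLR4-/- arrays A, B and D. After I/R they were 9.40, 9.79, 9.72 and 9.57 in wild type and 8.97, 8.68 and 8.66 in TLR4-/-. No array of either genotype crossed into the range of the other, although the wild-type sham arrays were spread over more than 1 log2 unit, with array B highest and array C lowest. The difference of means was -1.16 after sham and -0.85 after I/R, or 2.24-fold and 1.80-fold lower in TLR4-/-. Without wild-type sham array C the sham difference was -1.34, and without TLR4-/- I/R array D the I/R difference was -0.79.

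Entpd4 was also lower on every TLR4-/- array, with a wider gap after sham than after I/R. Its sham values were 7.67, 7.61, 7.95 and 7.70 on wild-type arrays A to D, and 6.62, 6.60 and 7.05 on TLR4-/- arrays A, B and D. After I/R they were 7.67, 7.57, 7.46 and 7.38 in wild type and 6.95, 6.45 and 7.12 in TLR4-/-. The genotypes did not overlap, but TLR4-/- sham array D and TLR4-/- I/R array D stood nearer to wild type than the others of their groups. The difference of means was -0.97 after sham and -0.68 after I/R (1.96-fold and 1.61-fold lower), and the nearest arrays were 0.56 and 0.26 apart. Without TLR4-/- I/R array D the I/R difference was -0.82, and without wild-type sham array C the sham difference was -0.90. RefSeq also lists Entpd4b, a close relative of Entpd4 on the same chromosome, for which no row was found, so signal of both genes in the Entpd4 row cannot be told apart.

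Alg6 separated the genotypes clearly after sham and narrowly after I/R. Its sham values were 5.78, 5.44, 5.70 and 5.54 on wild-type arrays A to D, and 4.85, 4.57 and 4.82 on TLR4-/- arrays A, B and D. After I/R they were 5.78, 6.07, 5.74 and 6.20 in wild type and 5.16, 5.67 and 5.13 in TLR4-/-. TLR4-/- I/R array C was the exception among its group, only 0.07 below the lowest wild-type array, and TLR4-/- sham array B lay in the background range. The difference of means was -0.87 after sham and -0.62 after I/R, or 1.82-fold and 1.54-fold lower. Without wild-type sham array C the sham difference was -0.84, and without TLR4-/- I/R array D the I/R difference was -0.53.

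**Figure D1:**
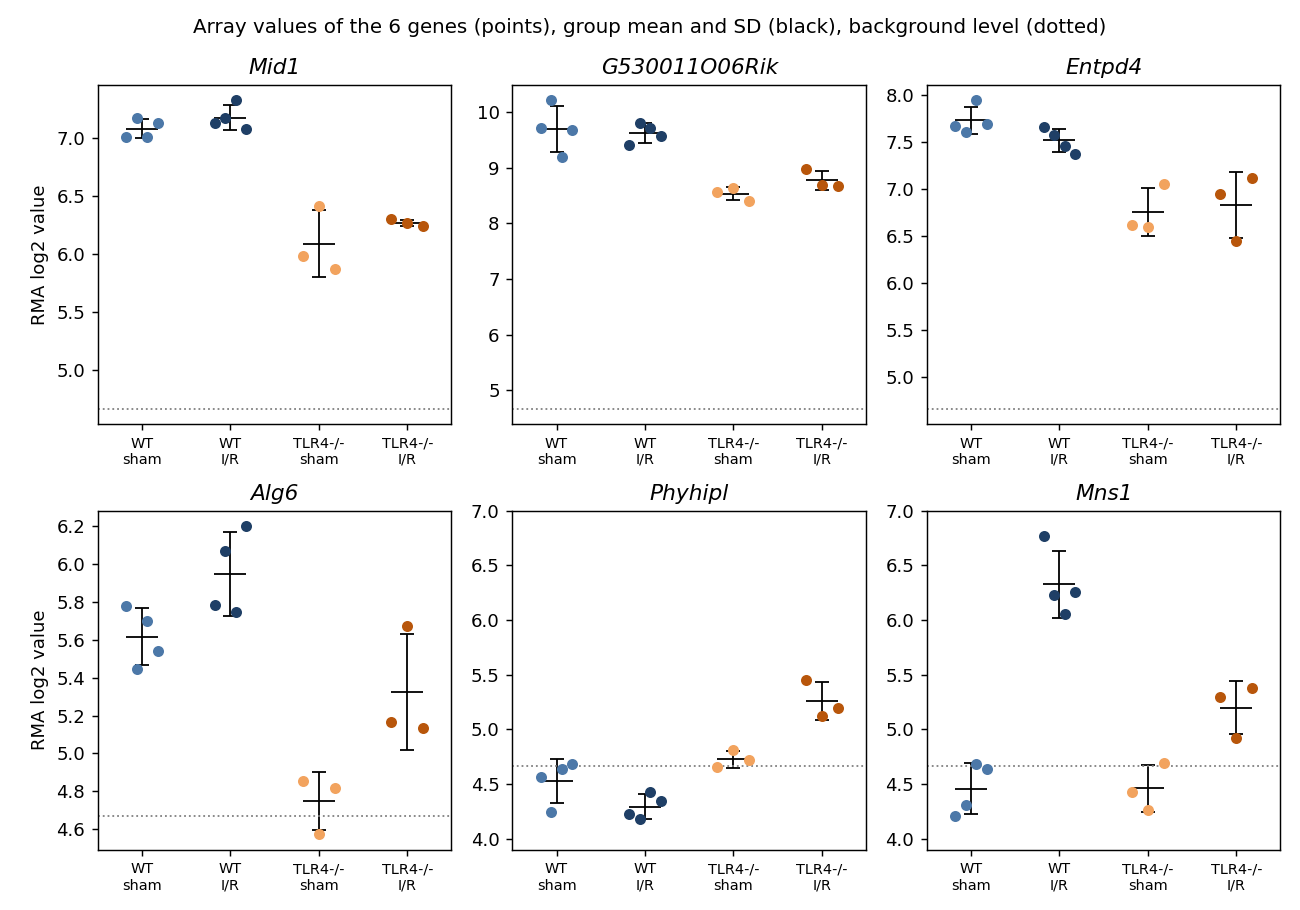
RMA log2 values of the 6 genes on each of the 14 arrays (points, y axis), by genotype and surgery (x axis), with the group mean and SD in black and the background level of 4.67 dotted; the y axes differ between panels. Mid1, G530011O06Rik, Entpd4 and Alg6 are lower on every TLR4-/- array in both surgeries, while Phyhipl and Mns1 part the genotypes after I/R only.

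Phyhipl ran the other way, and only after I/R did its arrays part by genotype. Its sham values were 4.56, 4.24, 4.64 and 4.69 on wild-type arrays A to D, and 4.65, 4.81 and 4.72 on TLR4-/- arrays A, B and D. After I/R they were 4.22, 4.18, 4.43 and 4.35 in wild type and 5.45, 5.13 and 5.19 in TLR4-/-. All wild-type I/R arrays and 3 of the 4 wild-type sham arrays lay in the background range, while the 3 TLR4-/- I/R arrays lay above it. The genotypes overlapped after sham, with a difference of means of 0.20. After I/R the difference was 0.96 and the nearest arrays were 0.70 apart. This is 1.95-fold over a wild-type mean at background, so the fold is measured against background signal. Without TLR4-/- I/R array D the I/R difference was 0.99, and without wild-type sham array C the sham difference was 0.23.

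Mns1 had the widest genotype difference of the 6 genes after I/R, and its arrays did not part after sham. Its sham values were 4.21, 4.31, 4.68 and 4.64 on wild-type arrays A to D, and 4.43, 4.27 and 4.69 on TLR4-/- arrays A, B and D. After I/R they were 6.76, 6.23, 6.05 and 6.26 in wild type and 5.29, 4.92 and 5.38 in TLR4-/-. The sham arrays of both genotypes overlapped, and their means lay in the background range. After I/R every array was above that range, and every TLR4-/- array was below every wild-type array. The difference of means was 0.00 after sham and -1.13 after I/R (2.18-fold lower in TLR4-/-), and the I/R value was -1.22 without TLR4-/- I/R array D. Without wild-type sham array C the sham difference was 0.08.

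Among all 19938 genes, limma called 1 gene between the genotypes after sham surgery (Mid1, 0.00502% of genes at an adjusted p under 0.05) and 4 after I/R (Mid1, Phyhipl, Mns1 and Tnfsf4, 0.0201%). These counts are from the comparisons that chose the genes and add nothing to them. They also turn on single arrays. After sham, limma called 10 genes without wild-type sham array C and 0 without wild-type sham array B or TLR4-/- sham array A or D (908 to 1333 genes at an unadjusted p under 0.05). After I/R it called 0 without wild-type I/R array A or B or any TLR4-/- I/R array (1180 to 2510 at an unadjusted p under 0.05), and 1 without wild-type I/R array C. Tnfsf4, which encodes the OX40 ligand, was in the background range on every array. After I/R its mean was 3.02 in wild type and 3.80 in TLR4-/-. The 4 genes lower on every TLR4-/- array after sham compare with 1.85% of all genes that had this pattern. After I/R the 5 lower genes compare with 3.2% of all genes, and Phyhipl, higher, with 6.13%. In both surgeries together 14 genes (0.0702%) were lower on every TLR4-/- array, and 4 of the 14 are the genes described here. By size of the difference, Mid1 ranked 12 after sham and 20 after I/R, and Mns1 ranked 3 after I/R.

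**Figure D2:**
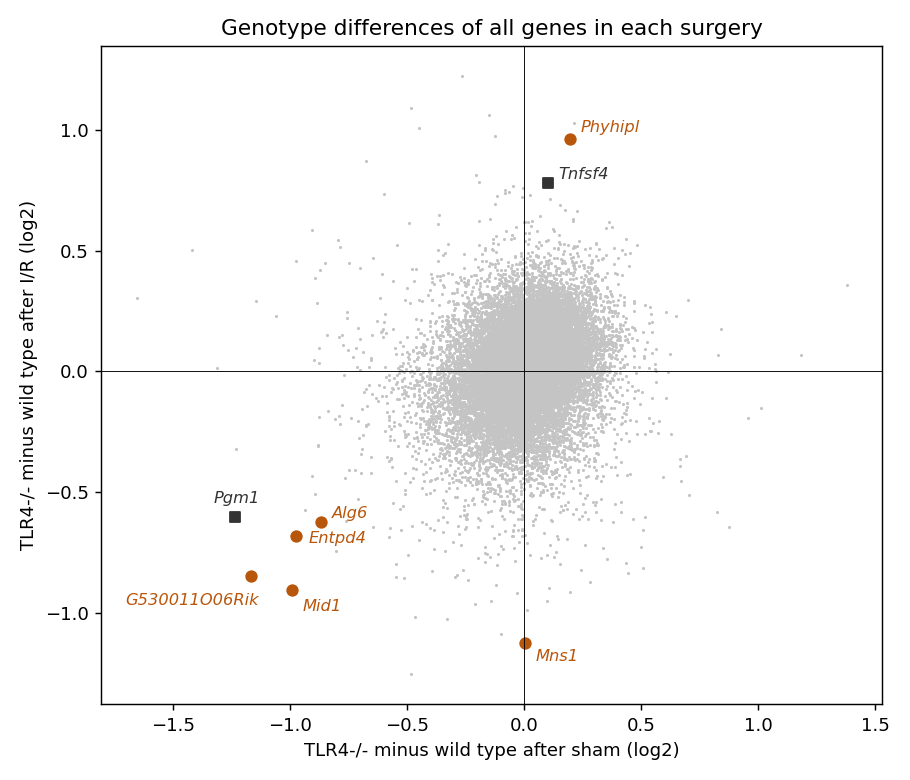
Difference of group means, TLR4-/- minus wild type on the log2 scale, after sham (x axis) and after I/R (y axis), for 19938 genes (grey), the 6 genes (orange circles) and Pgm1 and Tnfsf4 (black squares). Mid1, G530011O06Rik, Entpd4, Alg6 and Pgm1 lie together at the lower left, Mns1 lies at the bottom near 0 on the x axis, and Phyhipl lies at the top.

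Genes that parted the genotypes on every array in both surgeries numbered 99 in all, 85 higher and 14 lower in TLR4-/-, and with each array centred on its median there were 63, of which 30 were higher and 33 lower. Without wild-type sham array C there were 233 and without TLR4-/- I/R array D 259, since a smaller group is easier to part. Ordered by the smaller of the gaps between nearest arrays in the 2 surgeries, Mid1, G530011O06Rik and Entpd4 took ranks 1 to 3 and Alg6 rank 13. Rank 4 was Pgm1, a phosphoglucomutase, whose differences were -1.23 after sham and -0.60 after I/R. The next were all higher in TLR4-/-: Car12, Olfr796, Mir425, St6galnac2, C2cd4a, Lratd1, Itln1 and Crispld2, with differences from 0.18 (Itln1, sham) to 0.51 (C2cd4a, I/R). Krtap5-4, Lsm11 and Mir326 completed the first 12 outside the 6 genes, and Car12, Lratd1 and Itln1 were in the background range. Of the 85 higher genes, 50 had at least 1 group mean above background, against 14 of the 14 lower genes and 13149 of all 19938 genes. These counts and the chromosome shares below are from the uncentred values.

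By chromosome, 2 of the 14 lower genes (14.3%) lay on the chromosome of Tlr4 and 3 (21.4%) on X, against 5.81% and 3.72% of the 19856 measured genes with a RefSeq entry. Among the 85 higher genes the shares were 5.88% and 1.18%. The 3 on X are Mid1 and G530011O06Rik, which overlap, and Wdr13, whose nearest arrays were 0.014 apart after sham and 0.008 after I/R. Alg6 and Pgm1, which lie near each other, are the pair on the Tlr4 chromosome, with 95 measured genes between Alg6 and Tlr4. Mid1, G530011O06Rik and Alg6 were chosen for the pattern counted, so these shares are a description only. Entpd4 lies on chromosome 14, Phyhipl on chromosome 10 and Mns1 on chromosome 9.

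Measured genes on either side of each gene, up to 10 each way, were examined for the same difference. Genes were ordered by the position at which their span begins. Only 2 measured genes follow Mid1 in this order, among them G530011O06Rik, which lies inside Mid1 rather than beyond it. Of the 12 measured neighbours of Mid1, G530011O06Rik alone parted the genotypes in both surgeries. Hccs, the next gene on the other side, differed by 0.07 after sham and -0.04 after I/R. Tlr8, a receptor for single-stranded RNA, differed by -0.71 after I/R without parting the arrays. Of the 20 neighbours of Alg6, Pgm1 alone parted the genotypes, and the genes between them, Itgb3bp and Efcab7, differed by 0.17 and 0.03 after sham and by 0.17 and 0.35 after I/R. None of the 20 neighbours of Entpd4 did so, nor did any of those of Phyhipl, Mns1 or Tlr4. No neighbour other than Mid1, itself a neighbour of G530011O06Rik, was called between genotypes. The share of all genes called was 0.00502% after sham and 0.0201% after I/R.

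**Figure D3:**
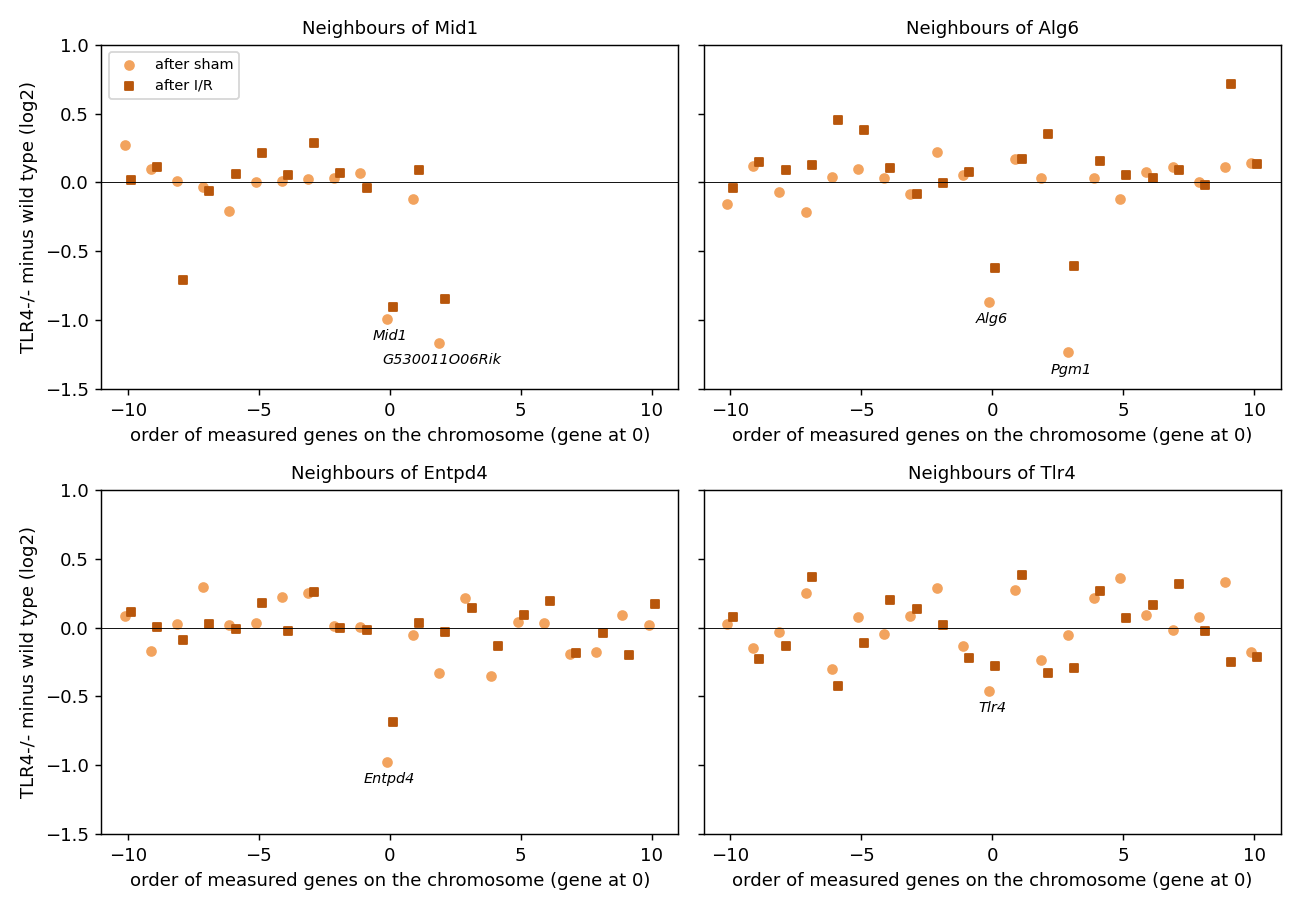
Genotype difference (TLR4-/- minus wild type, log2, y axis) after sham (circles) and I/R (squares) for up to 10 measured genes on each side, in RefSeq order (x axis, the named gene at 0). Mid1 and G530011O06Rik, Alg6 and Pgm1, and Entpd4 stand below their neighbours, and Tlr4 lies at -0.46 after sham and -0.28 after I/R.

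Pgm1 had the same order of genotypes as Alg6. After sham its values were 6.46, 6.62, 5.68 and 6.34 on wild-type arrays A to D, and 5.27, 4.77 and 5.08 on TLR4-/- arrays A, B and D. After I/R they were 6.67, 6.82, 6.65 and 7.03 in wild type and 5.57, 6.50 and 6.50 in TLR4-/-. The genotypes did not overlap within a surgery, but wild-type sham array C fell well below its group. Without that array the sham difference was -1.43, and without TLR4-/- I/R array D the I/R difference was -0.76. TLR4-/- I/R array B lay nearer to the sham arrays of its genotype than to the other I/R arrays.

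Tlr4 itself was measured by 1 row. Its values ran from 8.57 to 8.92 in wild-type sham, 8.14 to 8.48 in wild-type I/R, 8.15 to 8.47 in TLR4-/- sham and 7.62 to 8.40 in TLR4-/- I/R. Signal was present in both genotypes, whose arrays overlapped after I/R but not after sham. The difference of means was -0.46 after sham (-0.47 without wild-type sham array C) and -0.28 after I/R, and the I/R value was -0.079 without TLR4-/- I/R array D. Neither the deleted part of the gene nor the place of the probes is known here, and the row is no check of the genotype labels.

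The response to surgery within each genotype was tested with limma over all genes. In wild type 1 of the 6 genes, Mns1, was called (9.78% of all genes were called, 6.15% as higher after I/R). In TLR4-/- 3 of the 6, Mns1, Phyhipl and Alg6, were called, all higher after I/R (8.17% of all genes were called, 5.04% as higher). The I/R and sham arrays in these tests also entered the genotype comparisons that chose the genes, so the counts are not independent of that choice. In the same arrays, limma called 6 of 8 monocyte markers with I/R in wild type and 5 of 8 in TLR4-/-, counted in either direction. Their list medians were 1.43 and 1.42 (list mean from 4.58 to 4.98 on sham arrays and from 6.19 to 6.77 on I/R arrays). Of 11 microglial markers, 8 were called in wild type and 6 in TLR4-/-, in either direction, with list medians of -0.42 and -0.38. The part of either list in the result was not tested.

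Mns1 rose 3.65-fold in wild type (log2 change 1.87, SE 0.16, limma adjusted p = 5.61e-07), and every I/R array was above every sham array. In TLR4-/- it rose 1.67-fold (0.74, SE 0.19, limma adjusted p = 0.0220). The wild-type change exceeded the TLR4-/- change by 1.13, which follows from the genotype differences above and is given without a test. Both sham means were at background, so both folds are measured against background signal. The TLR4-/- call was lost on leaving out TLR4-/- I/R array B (limma adjusted p = 0.0658) or D (0.0871), or TLR4-/- sham array A (0.0762) or B (0.0930). With both wild-type sham array C and TLR4-/- I/R array D left out, the limma adjusted p in TLR4-/- was 0.0741 for Mns1, 0.0366 for Phyhipl and 0.0370 for Alg6. The wild-type Mns1 call held on leaving out any 1 of the 14 arrays, with a limma adjusted p of at most 4.75e-06.

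Phyhipl rose 1.44-fold in TLR4-/- (0.53, SE 0.13, limma adjusted p = 0.0214). This fold is measured against a TLR4-/- sham mean of 4.73, just above the background range, with 1 of the 3 arrays within it. In wild type the change was -0.24 (SE 0.12, limma adjusted p = 0.245), and the arrays overlapped. The TLR4-/- call was lost on leaving out TLR4-/- I/R array B (limma adjusted p = 0.0864) or TLR4-/- sham array A (0.0885) or D (0.0591).

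Alg6 rose 1.49-fold in TLR4-/- (0.58, SE 0.16, limma adjusted p = 0.0399), with every I/R array above every sham array. This fold is measured against a TLR4-/- sham mean of 4.75, just above the background range, with 1 of the 3 arrays within it. In wild type the change was 0.33 (SE 0.14, limma adjusted p = 0.171). The TLR4-/- call was lost on leaving out TLR4-/- I/R array C (limma adjusted p = 0.193) or any TLR4-/- sham array (0.0718 to 0.151), and with only the compared groups in the fit (0.0738). Pgm1 rose 2.22-fold in TLR4-/- (1.15, SE 0.25, limma adjusted p = 0.00766). Its wild-type change was 0.52 (SE 0.22, limma adjusted p = 0.156).

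Mid1, G530011O06Rik and Entpd4 did not pass the test in either genotype. The Mid1 change was 0.10 (SE 0.12, limma adjusted p = 0.676) in wild type and 0.18 (SE 0.13, limma adjusted p = 0.512) in TLR4-/-. For G530011O06Rik the changes were -0.07 (SE 0.17) and 0.24 (SE 0.19), and the wild-type value became 0.097 without wild-type sham array B. For Entpd4 they were -0.21 (SE 0.15) and 0.08 (SE 0.17), and the TLR4-/- value became -0.062 without TLR4-/- I/R array D. In these 3 genes both wild-type groups lay above both TLR4-/- groups, and the groups within a genotype overlapped except for G530011O06Rik in TLR4-/-, whose I/R arrays lay just above its sham arrays.

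**Figure D4:**
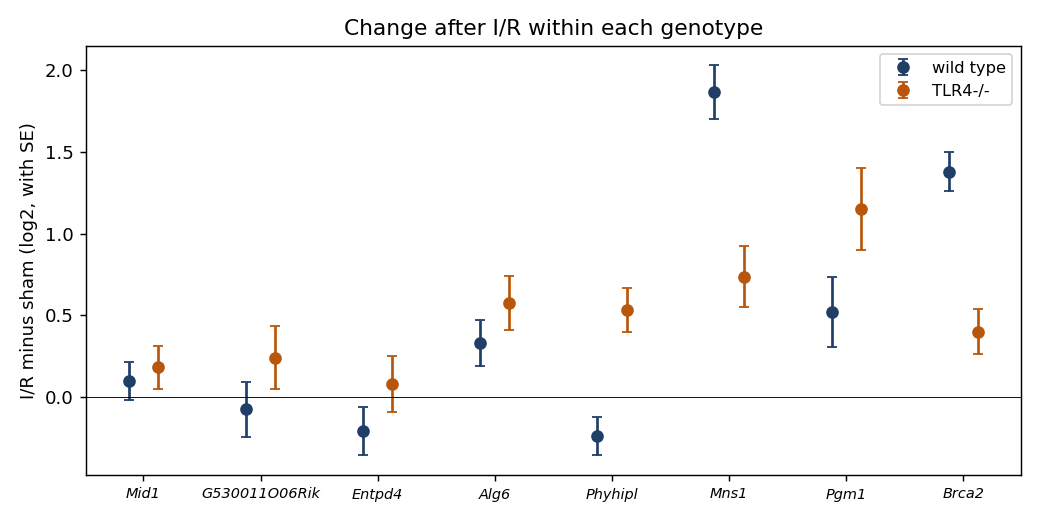
Change after I/R (I/R minus sham, log2, y axis, with SE from limma) in wild type (blue) and TLR4-/- (orange) for the 6 genes, Pgm1 and Brca2. Mns1 and Brca2 have their higher point in wild type, Alg6, Phyhipl and Pgm1 have their called change in TLR4-/-, and the changes of Mid1, G530011O06Rik and Entpd4 lie near 0.

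Across the 14 arrays, the gene most like Mid1 was G530011O06Rik (Pearson r = 0.921), followed by Entpd4 (0.808), Smim20 (0.780), Sin3b (0.774) and Alg6 (0.768). These arrays share their groups, so the same r was taken after removing group means. It was 0.440 for G530011O06Rik, but -0.392 for Entpd4 and -0.538 for Alg6. Among arrays of the same group, then, Mid1 and Entpd4 did not rise and fall together. The genes most opposite to Mid1 were A830092H15Rik (-0.881), St6galnac2 (-0.859), Lratd1 (-0.852), Cacna2d2 (-0.848) and Car12 (-0.843). With group means removed, their r was -0.005, -0.299, -0.328, -0.182 and 0.236, in that order. After Mid1, the genes most like G530011O06Rik were Glrp1 (0.851) and Smim20 (0.842), and those most like Entpd4 were Dcaf6, Spg11 (0.827) and Tyk2 (0.821).

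Pgm1 was the gene most like Alg6 (0.866, and 0.327 with group means removed), ahead of Eif2b4 (0.838) and Zcwpw1 (0.834). Tnfsf4 (0.932), Cilp (0.921) and Fabp4 (0.884) were most like Phyhipl. Brca2 (0.961), Dnmt1 (0.956) and Chaf1a (0.949) were most like Mns1, with 0.592, 0.205 and 0.526 once group means were removed. Brca2, a gene of homologous recombination repair, rose by 1.38 in wild type (limma adjusted p = 4.99e-07). Its change in TLR4-/- was 0.40 (limma adjusted p = 0.0947). The sham means of Brca2 lay in the background range in wild type (4.39) and TLR4-/- (4.65), so both changes are measured against background signal. The proliferation marker Mki67 rose in both genotypes, by 3.42 in wild type (limma adjusted p = 1.22e-09) and 3.15 in TLR4-/- (limma adjusted p = 4.67e-08). After I/R, Mki67 was lower on every TLR4-/- array than on every wild-type array, as were 3.2% of all genes. Its difference of means was -0.45, with the nearest arrays 0.09 apart, and its arrays overlapped after sham.

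Among Mid1 and its relatives and partners, 18 listed genes that were all measured, none outside Mid1 itself, whose call its choice had fixed, was called between genotypes. Over all genes 0.00502% were called after sham and 0.0201% after I/R, so the absence of genotype calls in this and the following lists carries no weight. The list median was -0.05 after sham and 0.06 after I/R, against 0.01 and 0.03 for all genes. Mid2, the close paralogue, was at background in all groups (3.06 to 3.16). Igbp1, the alpha4 protein that links midline 1 to protein phosphatase 2A, rose after I/R by 0.83 in wild type (limma adjusted p = 3.40e-04) and 0.69 in TLR4-/- (limma adjusted p = 0.00706). Mid1ip1, named as a Mid1-interacting protein, fell by 0.49 in wild type (limma adjusted p = 0.0194). Trim36, a midline-like ubiquitin ligase, fell by 0.67 in TLR4-/- (limma adjusted p = 0.00908). The Igbp1 and Trim36 calls held under each of 22 alternatives, whereas that of Mid1ip1 was lost under 6, among them leaving out wild-type I/R array C or D or wild-type sham array A or B.

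In the assembly of the N-glycan precursor, where Alg6 acts, 27 of 28 listed genes were measured and none was called between genotypes. The list median was -0.22 after sham and -0.10 after I/R, against 0.01 and 0.03 for all genes, and Alg6 had the lowest value in both. Alg8, which adds the glucose after that of Alg6, had means of 9.70 and 9.79 after sham and 10.04 and 9.98 after I/R in wild type and TLR4-/-. After I/R, Alg13 was called in wild type (0.50, limma adjusted p = 0.0480), and Alg10b (0.53, limma adjusted p = 0.0498) and Alg6 in TLR4-/-. Of the 18 genes of the oligosaccharyltransferase, which moves the finished glycan to proteins, and of glycan-dependent folding, none was called between genotypes. Stt3b (0.43) and Uggt1 (0.37) rose in wild type and Tusc3 (0.60) in TLR4-/-, at limma adjusted p of 0.0300, 0.0324 and 0.0488. These calls were lost under 13 (Alg13), 14 (Alg10b), 5 (Stt3b), 10 (Uggt1) and 16 (Tusc3) of the 22 alternatives, including single wild-type or TLR4-/- arrays left out in each case.

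Of 14 nucleoside di- and triphosphatases, 11 were measured and none was called between genotypes, Entpd4 included. Entpd1, the CD39 enzyme that degrades extracellular ATP on microglia, fell after I/R by 0.61 in wild type (limma adjusted p = 0.00220) and by 0.70 in TLR4-/- (limma adjusted p = 0.00281). Entpd5, an enzyme of the endoplasmic reticulum, rose by 0.81 in wild type (limma adjusted p = 0.0116), and Entpd7 by 0.58 in TLR4-/- (limma adjusted p = 0.0479). The Entpd7 call was lost under 12 of 22 alternatives, among them leaving out TLR4-/- I/R array B or C or any TLR4-/- sham array, and the other calls held.

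All 12 genes of phytanate breakdown and of the Phyhip family were measured. Phyh, the enzyme that starts the breakdown of phytanic acid, rose by 0.64 in wild type (limma adjusted p = 0.00764) and 0.60 in TLR4-/- (limma adjusted p = 0.0338). Phyhd1, a relative of Phyh, fell by 0.69 in wild type (limma adjusted p = 0.00437) and 0.68 in TLR4-/- (limma adjusted p = 0.0156). In TLR4-/- the Phyh call was lost on leaving out any TLR4-/- array but sham D, and the Phyhd1 call on leaving out sham array A or D or I/R array B or C. Phyhip, the namesake relative of Phyhipl, had changes of -0.07 and -0.26 and was not called.

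Only 7 of 30 axoneme genes were above background. Mns1 was the one that rose with I/R, while Spef2, a protein of the sperm tail, fell by 0.56 in wild type (limma adjusted p = 0.0399). That call was lost under 9 alternatives, 6 of them single arrays, and with the mean of all its rows the Spef2 change was -0.11 (limma adjusted p = 0.529). Of 17 meiosis genes, 3 were above background. Stag3, a meiotic cohesin subunit, rose by 0.90 in wild type (limma adjusted p = 1.78e-04) and 0.55 in TLR4-/- (limma adjusted p = 0.0317). Syce2, of the synaptonemal complex, rose by 1.24 in TLR4-/- (limma adjusted p = 0.0106), and Tex11 rose by 1.01 in wild type within the background range (limma adjusted p = 0.00240). In TLR4-/- the Stag3 call was lost under 5 of 22 alternatives. It was lost without I/R array D, alone or with wild-type sham array C, and without sham array A or B. With only the compared groups in the fit it was lost too (limma adjusted p = 0.0850). The Syce2 call in TLR4-/- was lost without sham array A (limma adjusted p = 0.0711).

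Markers of 10 cell types were examined beside the genotype differences, and no marker was called between genotypes. Of all genes, 0.00502% were called after sham and 0.0201% after I/R, so the absence of calls among markers carries no weight. The 8 markers of border-associated macrophages had a median difference (TLR4-/- minus wild type) of -0.44 after sham and -0.52 after I/R. Their list mean per array ran from 6.40 to 7.17 in TLR4-/- sham against 7.19 to 7.48 in wild-type sham, without overlap. After I/R it ran from 6.63 to 7.31 against 7.16 to 7.70, so the genotypes overlapped. All 8 were above background, and their part in the differences of Mid1 and the other genes was not tested. The microglial list median differed by 0.02 after sham and 0.01 after I/R.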

How the data were processed

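RNA of sorted microglia was measured on 14 Affymetrix Mouse Gene 1.0 ST arrays. Per the submitters' processing notes, the deposited log2 values were made with RMA in the oligo package (versions not given), a method that subtracts background, equalises the distributions of arrays and joins probes into 1 value per row. No further normalization was applied. Of 35556 rows, 21789 named 1 gene, 1621 named several and 12146 none. The first kind entered, with the highest-mean row for each of 999 genes with several, which left 19938 genes. Symbols came from the platform annotation, and chromosome order from a RefSeq table of GRCm38.p6, which held 19856 of them.

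A model of 4 group means over all arrays was fitted with limma 3.58.1 in R 4.3.3 (lmFit, eBayes), with Benjamini-Hochberg adjustment over all genes and calls at an adjusted p under 0.05. It was tested on simulated data. The members and gene lists were chosen with earlier results of these data known. Named beside the members are called list genes and close relatives, called neighbours, the genes of most similar pattern and up to 12 other separating genes. Itgb3bp, Efcab7, Hccs, Tlr8 and Mki67 were chosen after their values were seen. Alternatives were a fit of the compared groups alone, trend and robust variances, array weights, median centring, omission of dim genes, a replicate block, the mean of all rows, and each array left out. Leaving out both wild-type sham array C and TLR4-/- I/R array D was added after the data were seen. Their correlations with the other genotype all exceeded those with their own group, and other arrays leaned that way with overlap. Precision is limited by the number of arrays, and no depth applies to array signal. Same-letter arrays of different groups deviated together only weakly (mean r = 0.05 over 18 pairs, 3 of them over 0.1). Different-letter arrays had a mean r of -0.015 over 55 pairs, 6 of them over 0.1. The highest r was 0.28 among same-letter pairs and 0.24 among different-letter pairs. The letters were not taken as pairs, and the replicate block was kept as an alternative.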

Additional observations from a re-analysis of the deposited data

How the results depend on the processing

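The genotype differences of Mid1, G530011O06Rik, Entpd4 and Alg6 stayed negative under every alternative. That of Mid1 after sham ran from -1.15 (without TLR4-/- sham array B) to -0.88 with 1 array left out. Their nearest arrays also stayed apart with each array centred on its median. Counts over all genes moved more. The 1 gene called between genotypes after sham became 0 with only the compared groups in the fit, and 2 with trend and robust variances, with array weights or with the replicate block. It became 10 without the 2 arrays wild-type sham C and TLR4-/- I/R D. Where limma called 0, 844 to 1333 genes had an unadjusted p under 0.05. With 1 array left out it ran from 0 to 10, the highest without wild-type sham array C. The 4 genes called after I/R became 0 with only the compared groups, with the replicate block or without those 2 arrays, 7 with array weights and 2 without dim genes, and ran from 0 to 5 with 1 array left out. Where limma called 0, 1180 to 2699 had an unadjusted p under 0.05. The I/R count in TLR4-/- (1628) ran from 970 (without sham array A) to 1888 (without wild-type sham array C), and was 1071 without TLR4-/- I/R array C. No gene was called by limma for the difference of the surgery changes (762 at an unadjusted p under 0.05), and 0 to 1 with 1 array left out (1 without wild-type sham array C). The 99 genes that parted the genotypes in both surgeries became 63 with centred arrays, 64 without dim genes, 709 without the 2 arrays and 134 to 259 with 1 left out; fewer arrays make this pattern easier to meet. The uncalled change of G530011O06Rik in wild type reversed to 0.097 without wild-type sham array B (from -0.24 to 0.097 with 1 array left out). That of Entpd4 in TLR4-/- reversed to -0.026 with array weights and to -0.062 without TLR4-/- I/R array D, alone or with wild-type sham array C (from -0.062 to 0.28 with 1 array left out). The replicate block also ended the TLR4-/- surgery calls of Alg6 (limma adjusted p = 0.0856) and Phyhipl (0.0664). Where no cause is named above, the cause was not tested.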
